A study of Mus musculus with 2 samples.

Results

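Cycling blood endothelial cells are here the vessel lining cells of the tumors in which several transcripts of DNA copying or division were detected. They made up 69 of the 409 blood endothelial barcodes, 38 in the Cre plus and 31 in the Cre minus library, among 3334 barcodes that passed the filters of at least 500 genes and under 10% mitochondrial UMIs (unique molecular identifiers, the counted molecules). A barcode, the tag shared by the transcripts of 1 droplet, was called blood endothelial when Flt1, Plvap, Emcn, Gpihbp1 and Cd34 together had at least 5 UMIs and at least 2 times the UMIs of each of 4 other panels. Those were a lymphatic panel (Ccl21a, Prox1, Lyve1, Flt4 and Mmrn1), a melanoma panel (Dct, Pmel, Mlana and Tyrp1), a macrophage panel (C1qa, C1qb, Tyrobp and Lyz2) and a stromal panel (Rgs5, Acta2, Col1a1 and Col3a1). It was called cycling when at least 3 of the 6 genes Mki67, Top2a, Cenpf, Birc5, Cdk1 and Ube2c were detected. The values of these genes chose the members, so they are given below as a description. For the same reason no gene of these barcodes can test how the members differ from the other blood endothelial barcodes, and those contrasts are descriptions too.

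The cells came from mouse skin tumors grown for 15 days from B16F10 melanoma cells (500K implanted) that carry ovalbumin and the lymphatic growth factor VEGFC, injected into the dermis. Suspensions made with collagenase IV and DNASE I were sorted for DAPI-, CD31+, CD45- cells, which keeps living cells with an endothelial surface protein and leaves out leukocytes. One library was made per genotype, each from 3 pooled tumors: Ifngr1iProx1 mice (Cre plus), named for the interferon gamma receptor gene Ifngr1 and the lymphatic transcription factor gene Prox1, and Ifngr1WT mice (Cre minus). Both carried the same tumor cells and were collected on day 15 of tumor growth. Tumors that secrete VEGFC are a model rich in lymphatic vessels, and strain, sex and age of the mice are not given in the sources used here. With 1 library per genotype there is no replicate, so no test and no p-value is given, and a difference between genotypes cannot be told apart from a difference between the 2 pools or libraries.

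Vessels of a growing tumor extend by sprouting. A migrating tip cell leads each sprout in response to VEGF, and the stalk cells behind it divide, with Notch signalling separating the roles. Dividing cells pass through DNA replication, when replication enzymes and histones are made, and then through mitosis, when spindle, kinetochore and cytokinesis genes peak under the control of E2F factors and of the DREAM and B-MYB-FOXM1 complexes. Interferon gamma, which signals through the Ifngr1 and Ifngr2 receptor chains, is known to raise antigen presentation genes and guanylate-binding and immunity-related GTPases in endothelium and to slow its division.

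The 6 cycling genes were, by the rule, far above their level in the other blood endothelial barcodes. Levels are UMIs summed over the barcodes of a group and scaled by the total of the group to a common size of 1000000 (CPM), with exact 95% intervals in brackets that cover counting error only. Mki67 (chr7:135689784-135716361, minus strand of mm10), which codes for the Ki-67 protein that coats mitotic chromosomes, was at 197 [176, 221] CPM in the Cre plus members and at 178 [153, 205] CPM in the Cre minus members. It had a UMI in 30 of 38 and 28 of 31 members, and its median over members was 135 and 272 CPM, with a highest member of 1815 and 1413 CPM. In the other blood endothelial barcodes it was at 3.35 and 5.66 CPM. Top2a (chr11:98992943-99024189, minus strand), the topoisomerase that untangles replicated DNA, was at 220 and 275 CPM against 4.09 and 9.43 CPM. Cenpf (chr1:189640606-189688086, minus strand), a kinetochore protein, was at 158 and 179 CPM against 1.86 and 2.83 CPM. Birc5 (chr11:117849251-117855743, plus strand), the survivin of the chromosome passenger complex, was at 213 and 266 CPM and had a UMI in 33 of 38 and 29 of 31 members. The remaining pair was less confined to the members, because the kinase gene Cdk1 (chr10:69335146-69352938, minus strand) had a UMI in 21.3% and 20% of the other blood endothelial barcodes and the ubiquitin-conjugating enzyme gene Ube2c (chr2:164769898-164778822, plus strand) in 6.45% and 4.32%. Red cell barcodes had a UMI of Ube2c in 26.5% (Cre plus) and 33.2% (Cre minus) at median depths of 6761 and 7831 UMIs. For Mki67 that share was 0.427% and 0.897%, and for Top2a 0.855% and 1.79%.

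**Figure D1:**
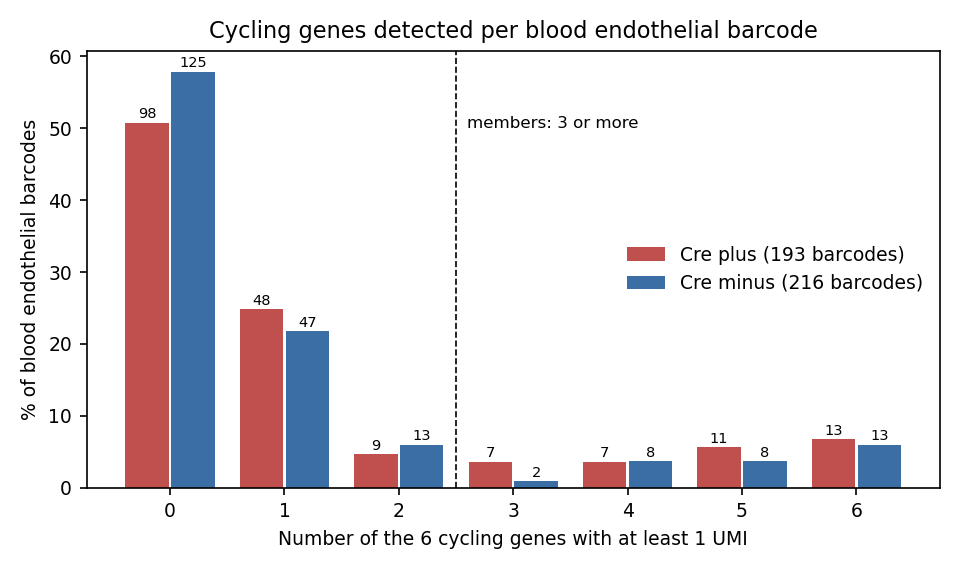
Share of the blood endothelial barcodes of each library (vertical axis, percent) by how many of the 6 cycling genes had a UMI (horizontal axis), with the number of barcodes on each bar and a dashed line where the members begin. Most barcodes had none or 1 of the genes, 98 and 48 in the Cre plus and 125 and 47 in the Cre minus library, and 13 members of each library had all 6.

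In the Cre plus library 9 barcodes had 2 of the 6 genes, just outside, and 7 had 3, just inside. In the Cre minus library 13 had 2 and 2 had 3. All 6 genes were detected in 13 members of each library. On the blood endothelial side, 2 Cre plus members and 1 Cre minus member had a panel of 2 to 3 times the next panel, and 2 and 1 barcodes with at least 3 cycling genes fell short at 1.5 to 2 times. The panel itself had only 5 to 9 UMIs, near the minimum of 5, in 4 and 3 members.

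The promoters of 3 of these genes are shown because they hold the cell cycle homology region, the motif TTTGAA to which the DREAM and B-MYB-FOXM1 complexes bind and which gives mitotic genes their late timing. Each line gives the 120 bases just before the RefSeq start of the gene (GRCm38.p6), 5′ to 3′ on the strand of the gene, with TTTGAA or its reverse complement TTCAAA in capitals. The stretches are chr7:135716380-135716499 for Mki67, chr11:99024190-99024309 for Top2a and chr10:69352913-69353032 for Cdk1, each on the minus strand.
Mki67: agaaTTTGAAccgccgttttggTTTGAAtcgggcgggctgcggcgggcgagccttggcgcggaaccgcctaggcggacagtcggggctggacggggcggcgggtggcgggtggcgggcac
Top2a: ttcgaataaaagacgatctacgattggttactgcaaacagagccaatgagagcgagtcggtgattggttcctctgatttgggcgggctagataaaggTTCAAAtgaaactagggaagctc
Cdk1: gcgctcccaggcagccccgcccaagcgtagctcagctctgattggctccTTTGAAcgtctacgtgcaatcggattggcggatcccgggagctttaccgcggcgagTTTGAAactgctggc
Counted from the start, the motif lay at -116 and -98 in Mki67, at -23 on the opposite strand in Top2a and at -71 and -15 in Cdk1. The stretches of Top2a and Cdk1 also show gattgg, the reverse complement of the CCAAT box.

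Over whole gene groups, the motif was more frequent among mitotic than among replication genes. A window of 250 bases before to 50 bases after the start was available for 27025 genes, and TTTGAA on either strand was in 18.1% of those windows and in 10.9% of the 5858 windows of genes measured in the members and the other barcodes of both libraries. Among the mitotic genes (the kinetochore, spindle, and cyclin and mitotic kinase lists), 57 of 69 matched a window and 33 of those, 57.9%, held it. Among the replication genes (licensing and DNA synthesis lists), 40 of 51 matched and 7, 17.5%, held it. The motif was not particular to mitotic genes, since it was also in 5 of 10 windows of the interferon GTPases. The E2F-type motif GCGGGAA showed the reverse: it was in 4.66% of all windows and 8.69% of those of measured genes, in 6 of the 57 mitotic windows (10.5%) and in 18 of the 40 replication windows (45%). CCAAT, searched on both strands as well, was common to both groups, at 70.2% and 65% against 37.9% of all windows. Overlaps between matches of different motifs were not removed, and a match in a window is a description of letters, not of a bound site.

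The members were endothelial cells by genes that the rule did not use. All 20 genes of a pan-endothelial list were detected in both libraries and every member had at least 6 UMIs of them. Their summed level was 10010 CPM in the Cre plus and 9252 CPM in the Cre minus members, against 11597 and 11955 CPM in the other blood endothelial barcodes. VE-cadherin (Cdh5), the adhesion protein of endothelial junctions, was at 1162 and 1116 CPM, and Pecam1, the CD31 of the sort, at 1039 and 996.8 CPM. The 5 panel genes, which chose the members, stood at 1446 and 1397 CPM for the VEGF receptor Flt1 (chr5:147561604-147726011, minus strand), 1217 and 1188 CPM for the diaphragm protein gene Plvap (chr8:71497765-71511752, minus strand) and 1107 and 1426 CPM for the sialomucin gene Emcn (chr3:137341067-137432185, plus strand). Gpihbp1, the capillary anchor of lipoprotein lipase, was at 1622 and 1465 CPM and Cd34 at 729.7 and 725.1 CPM. These panel genes cannot check the label, and neither can the lymphatic panel genes, which the rule kept low. The pan-endothelial genes did not go against an endothelial label for the members as a whole. For 5 Cre minus members described below they were far lower, with the pan-endothelial list at 2509 CPM against 10171 CPM in the other 26.

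Transcripts of other cell types were scarce in the members, in part by the rule. The melanoma, macrophage, stromal and lymphatic panel genes are among the markers counted here. The rule kept each of those panels low against the blood endothelial panel, so their low counts are a description and no check. The 10 melanoma markers together had 62 and 64 UMIs in the 2 libraries (41.2 and 60.6 CPM), the macrophage and leukocyte markers 8 and 28, the T and NK cell markers 2 and 0, and the fibroblast markers 11 and 4. The defining leukocyte genes Ptprc, Aif1 and Adgre1, the melanocyte gene Tyr and the fibroblast genes Col1a1, Col3a1, Dcn, Lum and Pdgfra were at 0 in both libraries. Pericyte markers had 362 and 120 UMIs with Pdgfrb and Notch3 at 0 in both. Lymphatic markers had 650 and 346 UMIs (432 and 328 CPM), with all 10 detected in Cre plus and Prox1, Lyve1, Reln, Pdpn, Thy1 and Tbx1 at 0 in Cre minus. In the other blood endothelial barcodes they were at 444 and 629 CPM. One barcode sequence occurred in both libraries, and no member shared a sequence. Doublets were not removed: the caller Scrublet marked 0 of 2491 and 3 of 2502 barcodes (0.120%) and no member, which was taken as not having worked.

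Members were deep barcodes. Total UMIs ran from 1424 over a median of 32383.5 to 343343 in Cre plus and from 2203 over 15631 to 312373 in Cre minus, while the medians of the other blood endothelial barcodes were 13638 and 10660. The members held 1504673 and 1056341 UMIs in all, out of 66704257 and 76967583 in the libraries. One Cre plus member above 100000 UMIs held 22.8% of its group, and 3 such Cre minus members held 60.3%, so summed levels in Cre minus lean on few cells. That Cre plus member, of 343343 UMIs, had 1 UMI each of Mki67 and Top2a (2.91 CPM). Its summed mitotic and replication transcripts were at 1584 and 585 CPM. The medians of the other Cre plus blood endothelial barcodes were 905 and 574 CPM, so its cycling call leans on its depth. Mitochondrial transcripts were a median 1.67% and 1.89% of UMIs. The nuclear RNA Malat1 was a median 0.450% and 0.262%, and it was above 0.1%, a sign of an intact nucleus, in 31 of 38 (81.6%, exact interval 65.7 to 92.3) and 20 of 31 members (64.5%, 45.4 to 80.8).

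A set of 5 Cre minus members differed from the rest. Their blood endothelial panel was under 1000 CPM, which held for none of the Cre plus members, and only 1 of the 5 was rich in Malat1. They had 11015 to 29798 UMIs, of which 0.0134% to 0.538% were mitochondrial. In these 5 the extracellular matrix gene Sparc was at 181 CPM against 8272 CPM in the other 26 Cre minus members, the collagen gene Col4a1 at 245 against 4010 CPM and the chaperone gene Hsp90b1 at 39.5 against 1232 CPM. Histone genes stood the other way, with the list at 8174 CPM against 1227 CPM, as did the small lipid and retinol carrier gene Rbp7 at 1397 against 143 CPM. Whether these are intact cells was not tested. They hold 12% of the UMIs of the Cre minus members.

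**Figure D2:**
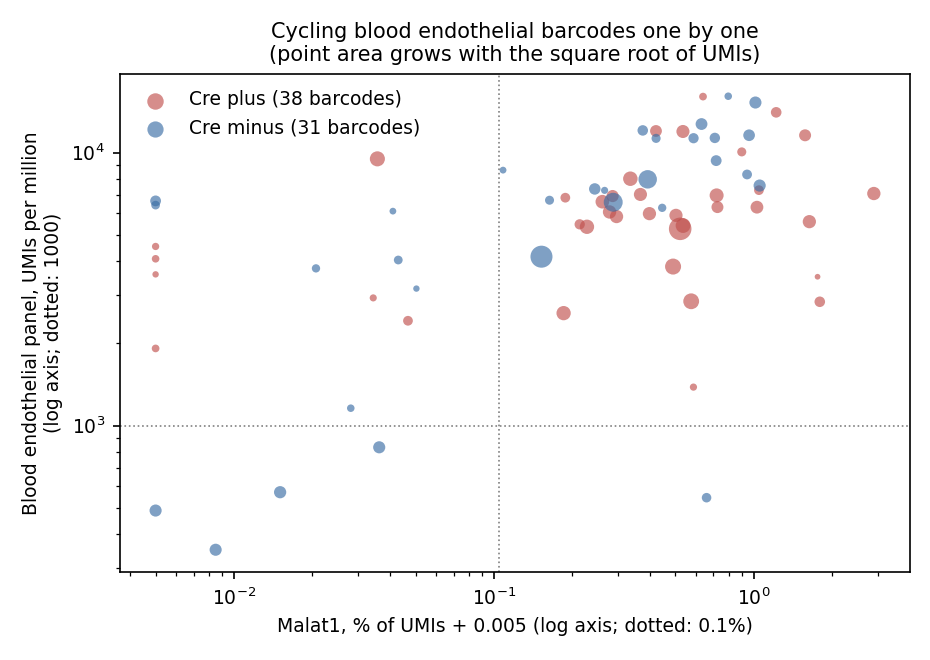
Malat1 share of UMIs (horizontal axis, percent, log scale) against the blood endothelial panel (vertical axis, CPM, log scale) for each of the 69 members, colored by library, with point area growing with total UMIs and dotted lines at 0.1% and 1000 CPM. All 38 Cre plus members lie above 1000 CPM, and 5 Cre minus members lie below it.

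The cycling share was 38 of 193 blood endothelial barcodes in Cre plus, 19.7% (exact interval 14.3 to 26), and 31 of 216 in Cre minus, 14.4% (9.96 to 19.7). Detection of 3 genes depends on depth. After the cycling genes of each barcode were thinned to a depth of 3000 UMIs, which left out 23 and 24 shallower barcodes, the shares were 10.0% (5.93 to 15.5, 17 of 170) and 9.90% (6.06 to 15, 19 of 192). With 1 library per genotype these shares describe the libraries, and the genotypes cannot be compared. Lymphatic barcodes gated the same way stood at 24.3% (21.3 to 27.5, 187 of 770) in Cre plus and 14.4% (9.90 to 19.9, 30 of 209) in Cre minus, and at 12.9% (10.4 to 15.6) and 9.50% (5.63 to 14.8) after thinning. Melanoma barcodes were cycling in 45.8% and 45.6%, and in 19.0% and 19.5% after thinning.

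Transcripts of DNA replication and mitosis were higher in the members than in the other blood endothelial barcodes of their library across nearly every list. Among 7296 genes measured in both libraries (at least 50 UMIs over both groups), 547 or 7.5% were over 1.5-fold higher in both libraries and 714 or 9.79% were over 1.5-fold lower in both. A gene that reached 50 UMIs only through the members had to be higher. One with nearly all its UMIs in the other barcodes had to be lower. The counts of higher and lower genes are therefore descriptions and no support. At a common depth of 3000 UMIs, where fewer genes reached 50 UMIs, 81 were higher and 181 lower. The median log2 ratio over all measured genes was -0.02 in Cre plus and -0.07 in Cre minus. Of 19 replication licensing genes 10 were measured and all 10 were higher in both, among them the helicase subunits Mcm2 to Mcm7, with list medians of 1.62 and 2.02. Of 32 DNA synthesis and repair genes 22 were measured and 18 were higher, with medians of 1.24 and 2.23. Pcna, the sliding clamp of the polymerases, was at 136 and 218 CPM against 57.3 and 52.8 CPM, log2 ratios of 1.24 [0.93, 1.55] and 2.04 [1.71, 2.38]. Of the deoxynucleotide supply list 11 of 18 measured genes were higher, among them thymidylate synthase (Tyms) at 123 against 39.4 CPM in Cre plus and 204.5 against 39.6 CPM in Cre minus.

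Replication-dependent histones were higher as well, with the same limit on the counts. Of 23 listed genes 10 were measured and 9 were higher in both, with medians of 2.53 and 3.12. Summed, they stood at 1812 and 2061 CPM in the members against 218 and 167 CPM. Without the 5 Cre minus members of low panel the Cre minus level was 1227 CPM, below that of Cre plus. Their transcripts end in a stem-loop rather than a poly(A) tail, which a poly(A)-primed kit captures poorly, so their levels are a lower measure. The H2A gene Hist1h2ap was at 756 and 658 CPM against 5.95 and 5.18 CPM, log2 ratios of 6.99 [6.28, 7.80] and 6.99 [6.14, 8.0]. It had a UMI in 26 and 16 members, and 1 barcode held 52.2% of its Cre minus UMIs. The linker histone gene Hist1h1b was at 128 and 215 CPM but had a UMI in only 11 and 8 members. Its Cre minus ratio of 6.51 was 4.62 without the 5 members of low panel.

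Mitotic genes were higher almost without exception. Spindle, motor and cytokinesis genes were higher in 20 of 21 measured of 29 listed (medians 4.85 and 3.72), kinetochore and checkpoint genes in 10 of 10 of 21 (3.75 and 3.26), condensin and passenger genes in 13 of 13 of 16 (2.82 and 2.93), and cyclins and mitotic kinases in 9 of 10 of 19 (3.75 and 3.62). Abundant members were the tubulin gene Tubb5 at 839 and 1261 CPM against 382 and 443 CPM and the microtubule destabilizer Stmn1 at 413 and 462 CPM against 90.8 and 66.9 CPM. Cenpa, the histone that marks centromeres, was at 162 and 156 CPM against 12.3 and 16.0 CPM. The variant histone H2afz and the chromatin protein gene Hmgb2 were among the most abundant, at 1312 and 1489 CPM and at 705 and 887 CPM, log2 ratios of 1.81 and 2.26 and of 2.62 and 3.28. Of the anaphase-promoting complex and its partners, 3 of 11 measured of 12 were higher: Cdc20, Ube2s and Fbxo5. These 3 activate, feed or restrain the complex, while its core subunits such as Anapc5 (0.55 and 0.59) and Anapc11 (0.56 and 0.98) did not pass 1.5-fold in both.

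The genes with the largest contrast in both libraries, by the ratio nearest to 0, were all of the cell cycle, the process that the rule selects. They were Hist1h2ap, Kif11, Hist1h1b, Ccnb1, Pimreg, Hist1h2ae, Kif20b, Plk1, Anln, Cdc20, Ccna2 and Cdca8. The spindle motor Kif11 was at 41.9 and 55.9 CPM against 0.372 and 0.471 CPM, which is 1 UMI in each comparator. Cyclin B1 (Ccnb1), the partner of CDK1 at entry into mitosis, was at 53.2 and 80.5 CPM against 1.12 and 1.41 CPM. The polo-like kinase Plk1 was at 37.9 and 57.7 CPM, with log2 ratios of 5.09 and 5.94.

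**Figure D3:**
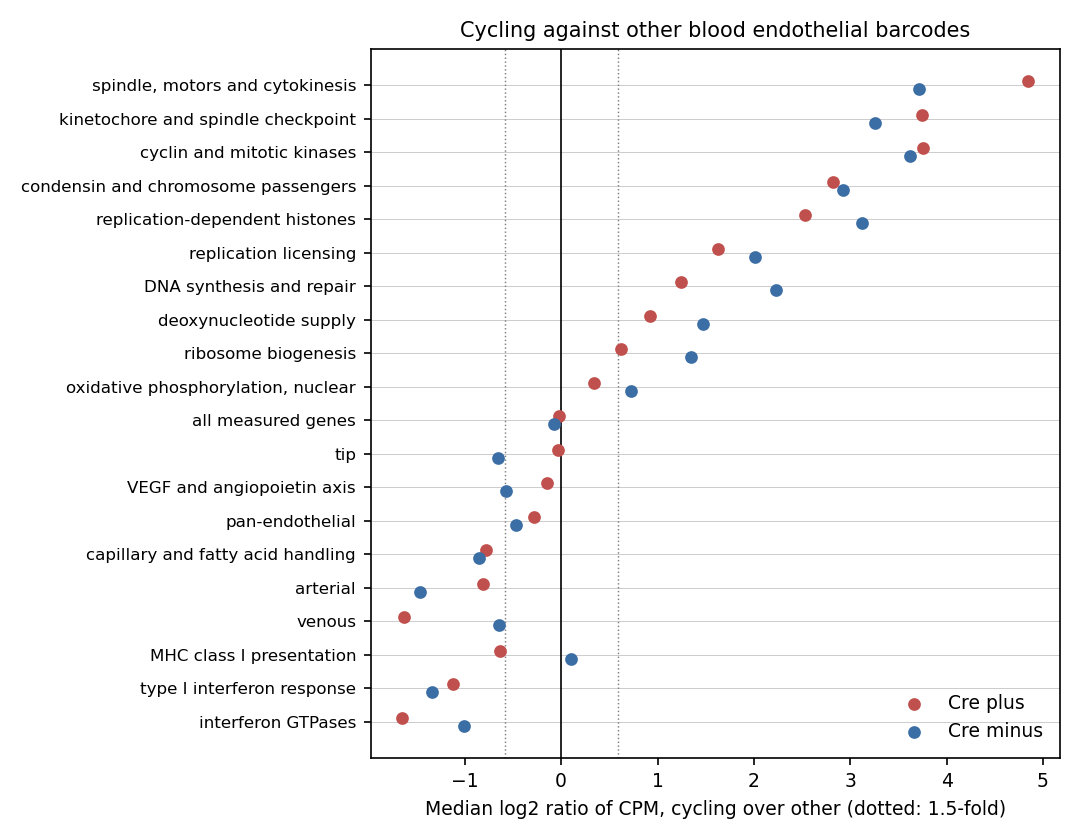
Median log2 ratio of the cycling over the other blood endothelial barcodes (horizontal axis) for each gene list (vertical axis), with 1 dot per library and dotted lines at 1.5-fold. The spindle, kinetochore and cyclin lists lie farthest to the right, between 3.26 and 4.85, and the interferon and arterial lists lie to the left, down to -1.65.

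The members covered replication and mitosis and were not of 1 phase. Summed mitotic transcripts ran from 929 over a median of 5495 to 22242 CPM per member in Cre plus and from 2276 over 9502 to 25862 CPM in Cre minus. The medians of the other blood endothelial barcodes were 905 and 923 CPM, so the lowest Cre plus member lay at the level of a typical barcode outside the rule. Replication transcripts ran from 0 over 1159 to 7539 CPM and from 454 over 1726 to 7783 CPM, against medians of 574 and 532 CPM. Of the Cre plus members, 14 had UMIs of both a replication histone (Hist1h1b or Hist1h2ae) and a mitotic gene (Plk1 or Ccnb1), 3 of the histones only, 10 of the mitotic genes only and 11 of neither. In Cre minus the numbers were 14, 3, 11 and 3. In shallow barcodes a missing UMI does not show that a transcript was missing.

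Regulators of the cycle were mixed. Of 18 listed transcription factors and pocket proteins 11 were measured. E2f1, E2f7, Lin52, Lin54, Tfdp1, Rbl1 and Myc were over 1.5-fold higher in both libraries and the retinoblastoma gene Rb1, which holds E2F factors in check, was lower, at 44.5 and 37.9 CPM against 104.5 and 80.6 CPM. Of 17 G1 cyclins and CDK inhibitors, Cdk4 alone of 11 measured was higher in both (0.63 [0.37, 0.88] and 1.59 [1.29, 1.90]) and the antiproliferative gene Btg1 alone was lower (-1.17 and -1.12). Ccnd1, which codes for cyclin D1, was at 587 and 847 CPM in the members and at 573 and 624 CPM in the other barcodes, log2 ratios of 0.03 [-0.09, 0.15] and 0.44 [0.32, 0.56]. The CDK inhibitor gene Cdkn1a was at 87.7 and 72.0 CPM against 79.6 and 68.4 CPM. Of 15 p53 target genes 7 were measured, with Phlda3 higher and Sesn1 lower.

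Growth genes were mixed, and of these lists only ribosome biogenesis was over 1.5-fold higher in most of its measured genes. Over all measured genes 7.5% were higher in both libraries and 9.79% were lower. Ribosome biogenesis was higher in 12 of 20 measured of 21 listed, with medians of 0.62 and 1.34. Nucleolin (Ncl), a nucleolar protein, was at 563 and 748 CPM against 359 and 366 CPM, log2 ratios of 0.65 [0.51, 0.78] and 1.03 [0.89, 1.17], and nucleophosmin (Npm1) at 775 and 1254 CPM against 543 and 475 CPM. Cholesterol synthesis was higher in 3 of 12 measured of 20 (Mvk, Idi1 and Fdps). Of 23 glycolysis and hypoxia genes 19 were measured, with Pgam1 and Ldha higher and Pfkfb3 and Bnip3 lower. All 27 nuclear genes of oxidative phosphorylation were measured and 1 passed 1.5-fold in both, with list medians of 0.34 and 0.72.

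Transcripts of angiogenic tumor endothelium were abundant in the members, near the level of the other barcodes in Cre plus and mostly below it in the Cre minus library. Of 25 tip cell genes 24 were measured, of which 1 was higher in both libraries (Apln) and 1 lower (Unc5b), with medians of -0.03 and -0.66. Summed, the list stood at 16932 and 14794 CPM in the members against 18579 and 22867 CPM. The most abundant were the basement membrane collagens Col4a1 (3689 and 3559 CPM against 4589 and 5469 CPM) and Col4a2, the growth factor carrier Igfbp3 (2379 and 1646 CPM against 2526 and 4166 CPM) and Esm1 (chr13:113209659-113218098, plus strand), the proteoglycan endocan of tip cells (1380 and 727 CPM against 1413 and 1564 CPM). Apelin (Apln), the peptide ligand of tip cells, was at 583 and 605 CPM against 328 and 395 CPM, log2 ratios of 0.83 [0.69, 0.96] and 0.61 [0.46, 0.77]. A single barcode, the deepest member of each library, held 47.8% and 51.3% of its UMIs, and averaged over barcodes the ratios were 0.44 and -0.32. The VEGF receptors were at or below the level of the other barcodes, with Kdr at -0.28 and -0.65 and the coreceptor Nrp1 at -0.62 and -1.13.

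Several genes of settled vessel types were lower. Of 14 arterial genes 9 were measured and 5 were lower in both libraries: Gja4, Efnb2, Sema3g, Hey1 and Fbln2 (list medians -0.81 and -1.46). Efnb2, the ephrin that marks arteries, was at 126 and 151 CPM against 314 and 434 CPM, log2 ratios of -1.32 [-1.56, -1.09] and -1.52 [-1.77, -1.28]. Of 15 capillary and fatty acid genes 9 were measured and 4 were lower: Cd36, Aqp1, Cd300lg and Pparg. The fatty acid transporter gene Cd36 was at 238 and 61.5 CPM against 562 and 382 CPM. The most abundant gene of that list, the fatty acid carrier gene Fabp4, was at 6171 and 2785 CPM against 6606 and 3713 CPM. Of 14 venous genes 6 were measured and Vwf, Lrg1 and Il1r1 were lower, but on few counts: Vwf, the von Willebrand factor, had 42 and 3 UMIs in the members. Ackr1, a marker of venules, had none. The venous median of Cre minus, -0.65, turned to 0.10 averaged over barcodes. In the pan-endothelial list, measured whole, only the phosphatase gene Ptprb was lower in both libraries and none was higher.

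Interferon-responsive genes were lower in the members of both libraries. Of 17 interferon-induced GTPases 12 were measured and 10 were over 1.5-fold lower in both, with medians of -1.65 in Cre plus and -1.0 in Cre minus. Summed, the GTPases stood at 484 CPM in the Cre plus members against 1647 CPM and at 324 CPM in the Cre minus members against 612 CPM. The median barcode had 255 against 614 CPM and 131 against 206 CPM, 5 of 38 and 8 of 31 members had no UMI of the list, and the highest member had 6333 and 2949 CPM. Iigp1, a GTPase that attacks parasite vacuoles, was at 143 and 92.8 CPM against 576 and 143 CPM, log2 ratios of -2.01 [-2.22, -1.81] and -0.62 [-0.97, -0.29]. Gbp7, a guanylate-binding protein gene, was at 61.1 and 41.7 CPM against 180.0 and 85.8 CPM. Averaged over barcodes, in which each cell weighs the same, the list medians were -0.95 and -0.85. At 3000 UMIs the Cre plus median was -0.37.

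The type I interferon list was lower too, and the other interferon lists were mixed. Of 27 type I interferon response genes 20 were measured and 12 were lower in both (medians -1.12 and -1.34). The membrane protein gene Ifitm3, the most abundant, differed between the libraries, at -0.90 [-0.99, -0.81] in Cre plus and 0.29 [0.17, 0.41] in Cre minus. At a common depth of 3000 UMIs the list median was 0.038 in Cre plus and -0.24 in Cre minus, so the contrast was not seen there. Of 16 receptor and signalling genes 14 were measured and 3 were lower. Of 22 genes of MHC class I presentation 21 were measured and 4 were lower (H2-T23, Tap2, Tapbp and Nlrc5), with medians of -0.63 in Cre plus and 0.10 in Cre minus. The Cre plus median was 0.28 at 3000 UMIs and -0.05 averaged over barcodes. The light chain gene B2m was at 1130.5 and 1038 CPM against 1993 and 1291 CPM, and the heavy chain gene H2-D1 at 1254 and 1006 CPM against 1729 and 973 CPM.

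The lowest genes by the ratio nearest to 0 were of several kinds: Aox1, Fam13c, Galnt15, March3, Dnm3, Bmp6, Ablim3, Slco2b1, Gbp4, Neat1, Mcf2l and Nav3. The ubiquitin ligase gene March3 was at 20.6 and 21.8 CPM against 98.6 and 123 CPM, and the bone morphogenetic protein gene Bmp6 at 16.0 and 2.84 CPM against 72.9 and 42.4 CPM. Neat1, the RNA that scaffolds nuclear paraspeckles, was at 43.2 and 25.6 CPM against 159 and 94.7 CPM. Averaged over barcodes, its log2 ratios were -1.44 in Cre plus and -0.29 in Cre minus. Malat1 was also lower in the members, with medians of 0.450% against 0.996% in Cre plus and 0.262% against 0.697% in Cre minus. So 2 nuclear RNAs were lower together, less clearly in Cre minus when barcodes weighed the same. Their part in the other differences was not tested.

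Against cycling lymphatic endothelial barcodes, the members differed in genes of vessel type, while few division genes stood the same way in both libraries. The comparison took 187 Cre plus and 30 Cre minus lymphatic barcodes chosen by the same rule with the lymphatic panel. These 2 lymphatic groups were unlike, with median depths of 29937 and 9276.5 UMIs. Malat1 was at 0.1% or more in 121 (64.7%) and 8 (26.7%) of them. One Cre minus barcode held 139644 of the 495710 UMIs of its group. What this does to the ratios was not tested. Among 5151 genes measured in both libraries, 522 or 10.1% were over 1.5-fold higher in the blood endothelial members of both and 365 or 7.09% were lower. At 3000 UMIs, with fewer genes measured, 27 were higher and 27 lower. Here too a gene with nearly all its UMIs in 1 group had its direction fixed, so these counts are descriptions. Of the mitotic lists (25 spindle, 12 kinetochore, 14 condensin and 9 cyclin genes measured) and of 10 licensing genes, none was higher and none lower in both. Of 25 DNA synthesis genes Pola2 was higher, of 16 deoxynucleotide genes Ctps was higher, and of 12 histone genes Hist1h2ab was lower. Within a library they did differ, in opposite directions: the spindle median was -0.57 (Cre plus) and 0.07 (Cre minus), and the histone median -0.35 and 0.998. Hist1h1b was at -1.31 [-1.53, -1.09] and 1.15 [0.70, 1.63]. These lists belong to the process the rule selects in both groups.

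The D-type cyclins separated the vessel types. Ccnd1 was at 587 and 847 CPM in the blood endothelial members and at 153 and 171 CPM in the lymphatic ones, log2 ratios of 1.94 [1.80, 2.07] and 2.30 [1.98, 2.64]. Ccnd3 was higher too (0.81 and 1.76), while Ccnd2 was lower (-3.57 and -5.79), as were the kinase gene Cdk6 (-2.80 and -1.76) and Btg1. These 5 of the 10 measured G1 genes passed 1.5-fold in both libraries. The rest of the list, such as Cdk4 (-0.46 and -0.08) and Cdkn1a (0.51 and 0.83), did not.

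Angiogenic genes were higher in the blood endothelial members. Of 23 tip cell genes 14 were higher and Unc5b was lower, with medians of 1.31 and 1.25 against -0.15 and 0.06 over all genes. Of 11 measured genes of the VEGF and angiopoietin axis 7 were higher (Kdr, Nrp1, Angptl4, Apln, Aplnr, Adm and Ramp3), while the lymphatic coreceptor Nrp2 and the adrenomedullin receptor Calcrl (-1.27 and -1.10) were lower. Nrp1 was at 718 and 668 CPM against 1 UMI in each lymphatic group. Esm1 was at 1380 and 727 CPM against 4.28 CPM in the Cre plus lymphatic group and 0 UMIs in the Cre minus one. All 5 measured arterial genes (Efnb2, Sox17, Cxcl12, Clu and Jag1) and 7 of 9 capillary genes were higher. At 3000 UMIs only 1 capillary gene was measured in Cre minus, at -1.06. Of 19 pan-endothelial genes 13 were higher and none lower. The other genes highest by the rule were Fam167b, Igfbp3, Esam, Sparcl1, Ptn, Apln, Ly6a, Vwa1, Rgcc and Ccn2. On the lower side were Reln, Pld5, Col23a1, Mrc1, Tc2n, Fgf12, Ptx3, Plce1, Fxyd6, Spp1, Ifi27l2a and Ntn1, of which the mannose receptor gene Mrc1 was at 8.64 and 0.947 CPM against 455 and 633 CPM. All 10 measured lymphatic markers were lower, which the 2 panels fix in large part.

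Ifngr1 (chr10:19591949-19610229, plus strand) was higher in blood than in lymphatic cycling barcodes. It stood at 146 [127, 166] CPM in the Cre plus members and 134 [113, 158] CPM in the Cre minus members, with a UMI in 31 of 38 and 22 of 31. Cycling lymphatic barcodes had 30.0 and 52.5 CPM, log2 ratios of blood over lymphatic of 2.28 [1.99, 2.56] and 1.36 [0.75, 2.02]. Its partner Ifngr2 (0.94 and 0.92) and the kinase gene Jak2 (0.95 and 1.26) were also higher. Of 12 type I interferon genes, in contrast, none was higher and 6 were lower: Isg15, Ifi27l2a, Ifi44, Ifi35, Ifitm3 and Zbp1. Ifitm3 was at -1.28 [-1.36, -1.20] and -1.42 [-1.54, -1.29]. Cholesterol synthesis was lower in 6 of 10 measured genes, among them Hmgcs1 (-0.89 and -1.51) and Fdps (-0.80 and -1.42).

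Between genotypes, the Ifngr1 transcript of the cycling blood endothelial cells differed by less than its counting error. The log2 ratio of Cre plus over Cre minus was 0.11 [-0.20, 0.43] in the members and 0.34 in the other blood endothelial barcodes, against -0.81 [-1.40, -0.16] in cycling lymphatic barcodes. Those lymphatic groups differed in depth and Malat1 share, as given above. The deleted stretch of Ifngr1 is not named in the labels, and a 3′ tag can lie outside it, so these levels do not measure how many receptors work. Prox1, the gene that the name of the genotype joins to Ifngr1, is a lymphatic gene and belonged to the lymphatic panel, which in members had to stay below the blood endothelial panel.

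**Figure D4:**
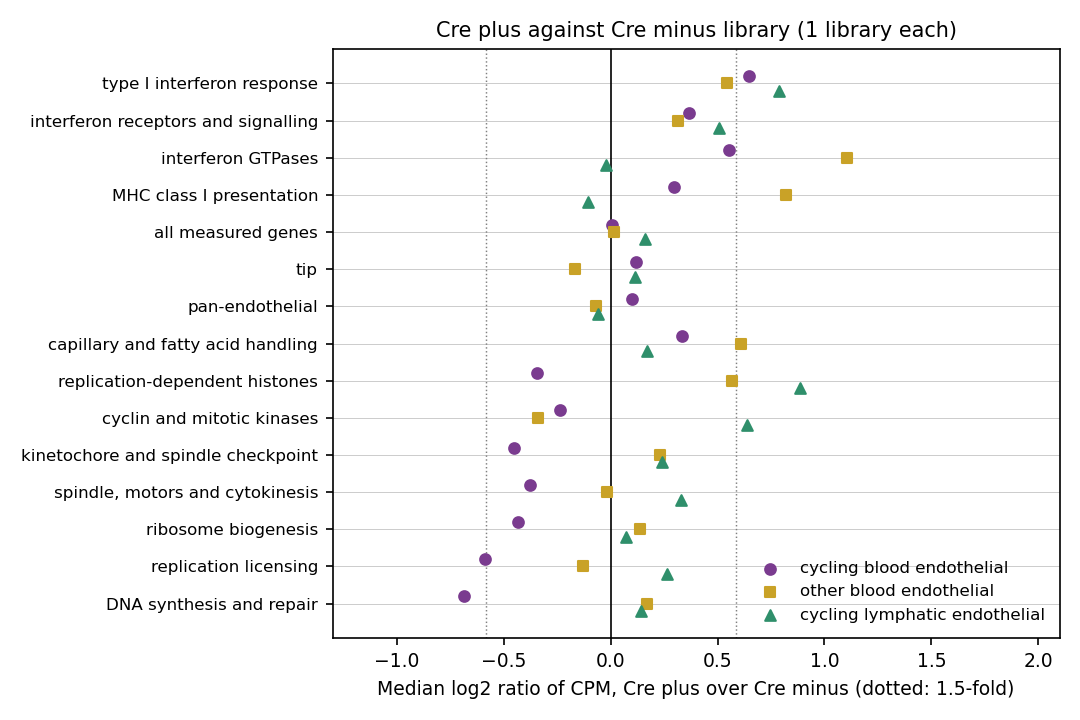
Median log2 ratio of Cre plus over Cre minus (horizontal axis) for each gene list (vertical axis) in cycling blood endothelial (circles), other blood endothelial (squares) and cycling lymphatic barcodes (triangles). For the interferon GTPases the circle is at 0.55 and the square at 1.11, and for DNA synthesis the circle is at -0.68 and the square at 0.17.

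Interferon-responsive genes were higher in the Cre plus than in the Cre minus members. Among 6778 genes measured (at least 50 UMIs over both libraries), 579 or 8.54% were over 1.5-fold higher and 389 or 5.74% were over 1.5-fold lower in Cre plus, with a median of 0.00. Of the 7 GTPases measured 6 were higher and 3 over 1.5-fold, with a median of 0.55. All 16 measured type I interferon genes were higher, 9 over 1.5-fold, with a median of 0.65. Of 14 signalling genes 12 were higher and 4 over 1.5-fold (0.37), and of 20 genes of MHC class I presentation 15 were higher and 5 over 1.5-fold (0.29). None of these lists had a gene over 1.5-fold lower. NF-kB targets were higher in 6 of 6, 3 of them over 1.5-fold.

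Single interferon genes in the members were mostly higher in Cre plus, with wide intervals. Iigp1 had a log2 ratio of 0.62 [0.27, 0.98] and Gbp7 of 0.55 [0.02, 1.11], whereas for Irgm1 (0.39 [-0.16, 0.95]), Ifi47 (0.24 [-0.47, 0.97]) and Gbp2 (-0.16 [-0.90, 0.59]) the interval included 0. Averaged over barcodes Gbp2 was at 2.17, so its sign depended on the weight of the deepest cells. Bst2, the virion tether, was at 0.33 [0.20, 0.47], and Ifitm3 at 0.09 [-0.03, 0.21]. H2-D1 was at 0.32 [0.21, 0.43] and B2m at 0.12 [0.01, 0.23], while the loading chaperones Pdia3 and Calr were at -0.34 and -0.34. Nfkbia, the NF-kB inhibitor and target, was at 200 against 89.0 CPM, a ratio of 1.17 [0.83, 1.52].

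The same lists were also higher in Cre plus in the other blood endothelial barcodes. There 8395 genes were measured, of which 839 or 9.99% were over 1.5-fold higher and 637 or 7.59% lower. All 16 measured GTPases were higher and 14 of them over 1.5-fold, with a median of 1.11, and of 22 MHC class I genes 20 were higher and 15 over 1.5-fold (0.82). Iigp1 had a ratio of 2.01 there and 0.62 in the members, and H2-D1 0.83 and 0.32. The difference between members and other barcodes in these ratios was not tested. With each barcode weighing the same, the GTPase median was 1.11 in the members and 1.40 in the other barcodes, and the MHC class I median 0.81 and 0.98. In cycling lymphatic barcodes the medians were -0.02 for the GTPases and -0.10 for MHC class I.

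A few interferon gamma targets rested on few members. The chemokine gene Cxcl9, which draws T cells, was at 187 and 199 CPM in the Cre plus and Cre minus members, a ratio of -0.09 [-0.35, 0.17], but at 923 and 200 CPM in the other blood endothelial barcodes (2.21). It had a UMI in 19 and 8 members, and 27.4% and 91.4% of its UMIs came from 1 barcode. Averaged over barcodes the ratio in the members was 3.36. Of the MHC class II list Cd74, the invariant chain, was at 21.3 against 84.3 CPM and H2-Ab1 at 29.9 against 45.4 CPM, with 1 barcode holding 97.8% of the Cre minus Cd74 UMIs. Averaged over barcodes both turned, to 1.41 and 1.53.

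**Figure D5:**
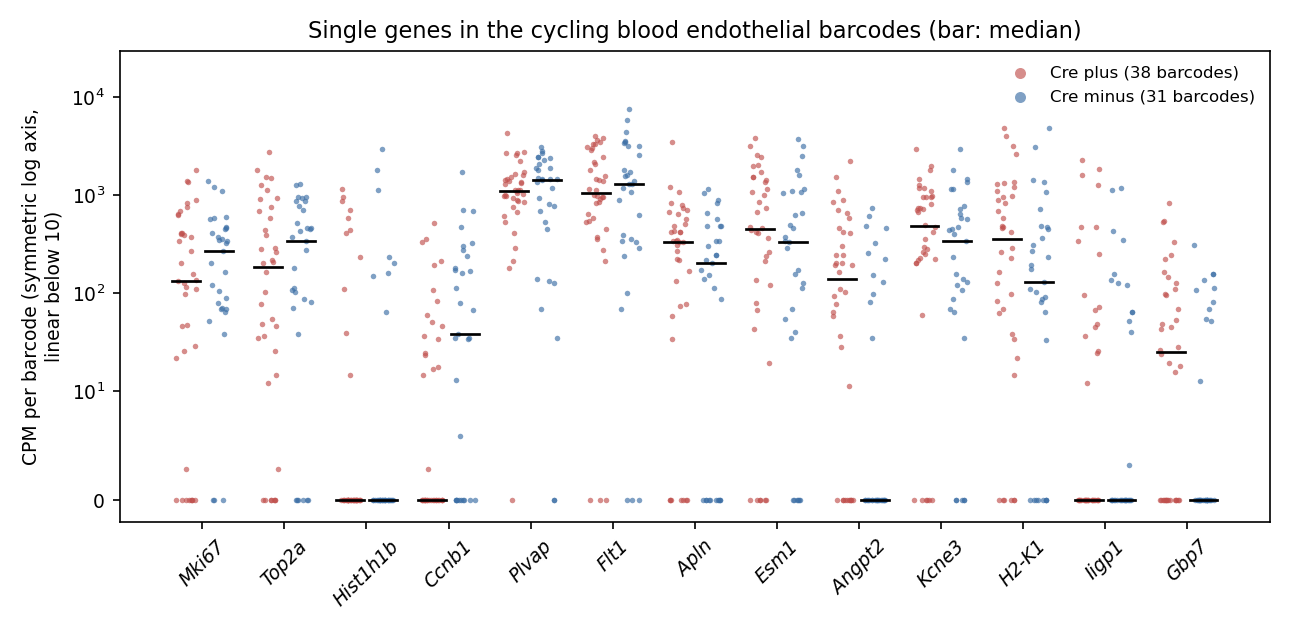
Level of 13 genes in each member (vertical axis, CPM, log scale that is linear near 0), with 1 point per barcode, Cre plus and Cre minus side by side and a bar at the median of each group. Single barcodes reach 2322 CPM for Iigp1 and 1815 CPM for Mki67 in Cre plus, and for every gene shown the ranges of the 2 libraries overlap.

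Replication genes stood the other way in the members. Of 30 measured DNA synthesis genes 2 were higher and 17 were over 1.5-fold lower in Cre plus, with a median of -0.68, and of 13 licensing genes none was higher and 7 were over 1.5-fold lower (-0.59). Deoxynucleotide genes were over 1.5-fold lower in 9 of 21 (-0.50), spindle genes in 6 of 26 (-0.38), kinetochore genes in 7 of 18 (-0.45) and ribosome biogenesis in 7 of 20 (-0.43). In the other blood endothelial barcodes the DNA synthesis median was 0.17 and the licensing median -0.13, and in cycling lymphatic barcodes they were 0.14 and 0.26. Pcna was at 136 against 218 CPM, a ratio of -0.68 [-0.96, -0.41], and Mcm3, a helicase subunit, at 82.4 against 138 CPM (-0.75 [-1.10, -0.39]). Both groups were chosen by cycling genes, so these ratios are descriptions. At 3000 UMIs, where 4 spindle genes were measured, their median was 0.35. Without the 4 members above 100000 UMIs the DNA synthesis median was -0.75, and without the 5 Cre minus members of low panel it was -0.51. Among the 6 rule genes Mki67 was at 0.15 [-0.12, 0.42] while Cdk1 was at -0.67 [-0.94, -0.39] and Ube2c at -0.89 [-1.16, -0.62].

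Tip cell genes were mixed between genotypes, and a few cells held most UMIs of those that differed most. Of 25 measured 18 were higher and 6 over 1.5-fold in Cre plus, with a median of 0.12. Angiopoietin 2 (Angpt2, chr8:18690263-18741562, minus strand), which loosens vessels, was at 632 against 243 CPM, a ratio of 1.38 [1.18, 1.58], and Esm1 at 1380 against 727 CPM, 0.92 [0.80, 1.05]. One barcode, the deepest member of each library, held 55.2% and 56.8% of the Angpt2 UMIs and 53.3% and 44.3% of those of Esm1. Averaged over barcodes the ratio of Esm1 was 0.32, and in the other blood endothelial barcodes the summed ratios were 0.31 for Angpt2 and -0.15 for Esm1. Of the capillary list Fabp4 was higher in Cre plus both in the members (6171 against 2785 CPM, 1.15 [1.09, 1.21]) and in the other barcodes (0.83), as was Fabp5, at 547 against 175 CPM in the members (1.64 [1.41, 1.88]).

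The genes with the clearest genotype difference by the interval bound were Tnfrsf9, Edn1, Depp1, Prss23, Sat1, Cxcr4, Pdzd2, Cd36, Gda and Tanc2 on the higher side. Tnfrsf9, the receptor 4-1BB, was at 126 against 12.3 CPM (3.36 [2.55, 4.29]), with a UMI in 13 and 6 members and 53.7% of its Cre plus UMIs in 1 barcode. Endothelin 1 (Edn1), a vasoconstrictor peptide, was at 106 against 16.1 CPM, with 73.0% in 1 barcode. The polyamine-catabolic enzyme gene Sat1 was at 1112 against 330.4 CPM, a ratio of 1.75, and at 0.72 averaged over barcodes, with 35.7% of its Cre plus UMIs in 1 barcode. The chemokine receptor gene Cxcr4, which also marks tip cells, was at 76.4 against 15.1 CPM (2.34), and at 0.62 averaged over barcodes. One barcode held 43.5% of its Cre plus and 56.25% of its Cre minus UMIs. In the other blood endothelial barcodes the ratio of Cxcr4 was -0.57 [-0.82, -0.33].

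On the lower side were Stox2, Odc1, Ptgs1, Prim2, Cped1, Cdca7, Pard3b, Aplnr, Cdkn2d and Asns. Odc1, the enzyme gene that starts polyamine synthesis, was at 288 against 703 CPM (-1.29), but the ratio was 0.62 without the 4 deepest members and -0.12 averaged over barcodes. Prim2, a primase subunit, was at 23.9 against 66.3 CPM, and Cdca7, a chromatin factor induced in S phase, at 10.6 against 35.0 CPM. Aplnr, the apelin receptor, was at 126 against 269 CPM (-1.09 [-1.36, -0.82]), and at -0.48 averaged over barcodes. One barcode held 35.2% of the Cre minus Aplnr UMIs, and in the other blood endothelial barcodes the Aplnr ratio was 0.25 [0.08, 0.41]. For the ligand Apln, at 583 and 605 CPM, the interval included 0 (-0.05 [-0.20, 0.10]).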

How the data were processed

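Transcripts were counted by the authors with Cell Ranger 7.0.0 against mm10, per the submitters' processing notes. The sources used here do not give the annotation. The deposited matrices hold raw UMI counts for 32285 genes and 4993 barcodes. The members, the 47 gene lists and the tests were chosen with earlier results of these data known, and genes named from counts of 5 or fewer were named after their values were seen. Counts were summed per group and library, scaled to 1000000 (CPM) and compared as log2 ratios with exact conditional binomial 95% intervals, which cover counting error only; intervals of shares are Clopper-Pearson. A gene was measured at 50 UMIs or more. Named genes were the 12 highest and 12 lowest of each within-library contrast and the 10 and 10 of the genotype contrast. Mitochondrial, ribosomal, haemoglobin, X-inactivation, Y-linked, unnamed and rule genes were left out of these, as were genes under 10% of their level in melanoma, macrophage or stromal barcodes. Of each list, the members named are mostly the 4 of most UMIs. Gene positions are those of GENCODE on mm10, and promoters those of RefSeq (GRCm38.p6). Reads of overlapping genes and of near-identical copies, such as histone, Gbp and H2 genes, may be shared between them. Alternatives covered the filters, the gate, thinning to 3000 UMIs, averaging over barcodes, median centring and Malat1-rich barcodes. The counting and ratios were tested on simulated data. Python 3.11.15, numpy 2.4.6, scipy 1.17.1, pandas 2.3.3 and scanpy 1.11.5 were used. One gene of the lists is not reported here.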

Additional observations from a re-analysis of the deposited data

How the results depend on the processing

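Of 1681 recomputed values of single genes and lists, 1516 stayed within the interval of the reported value, 158 moved outside it and 7 reversed. That total leaves out the main results, whose shifts are given below. These are the cycling shares, the gene counts, the tip and DNA synthesis medians of cycling over other barcodes, and the genotype medians of GTPases, MHC class I and spindle genes. A value was called reversed only if the reported one passed 1.5-fold. For a list, the interval was that of its middle gene or genes, not of the median. Leaving out the doublets called by Scrublet is not in the total either, since none was blood endothelial. No paired analysis was possible because each genotype has 1 library. With genes measured from 1 UMI, the genes higher and lower in cycling over other blood endothelial barcodes were 1156 and 1264 in place of 547 and 714, and those of blood over lymphatic cycling barcodes 895 and 1166 in place of 522 and 365; the DNA synthesis median of Cre plus was 1.77 and the venous median of Cre minus 0.00602. At 3000 UMIs (17 and 14 members), these counts were 81, 181, 27 and 27, the cycling share of blood endothelial barcodes, Cre plus, 10.4%, the cycling share of blood endothelial barcodes, Cre minus, 8.09%, the tip medians -0.26 and -0.26, the spindle genotype median 0.35 (4 genes), the Cre plus medians of MHC class I and type I interferon genes 0.28 and 0.038, and, with 1 gene left in each, the venous value of Cre minus 0.82 and the capillary value of blood over lymphatic barcodes in Cre minus -1.06. Too few genes reached 50 UMIs there to give the GTPase genotype and DNA synthesis values. Averaged over barcodes, 449 genes were lower in cycling barcodes, the Cre plus DNA synthesis median was 1.64, the tip medians 0.068 and -0.34, the venous median of Cre minus 0.10, and the genotype medians of GTPases and MHC class I 1.11 and 0.81. Without barcodes over 100000 UMIs, 444 genes were lower in cycling barcodes, 331 higher and 204 lower in blood over lymphatic barcodes, the Cre plus tip median was -0.16 and Odc1 0.62. Against barcodes with none of the 6 genes, the Cre minus DNA synthesis median was 2.95. The cause of these shifts was not tested. Leaving out the deepest barcodes and those of low blood endothelial panel were choices made after seeing the data. Depth limits the members: a gene near 50 UMIs over both groups has a wide interval, and the phase of a shallow barcode cannot be read.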
